A study of Mus musculus with 12 samples.

Results

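D2 against B6 is the parental comparison of the series: RNA from embryonic stem cells of DBA/2J mice (D2) against the same cells from C57BL/6J mice (B6), a pair of widely used inbred strains. It uses 6 of the 12 libraries, 3 from each strain, and every gene with enough reads to be tested, which was 17148 of 43346 genes in the deposited table. The other 6 libraries come from reciprocal congenic lines: B6-13D2 has a D2 stretch of chromosome 13 in a B6 genome, and D2-13B6 has a B6 stretch in a D2 genome. All 12 libraries came from cultures in serum medium with LIF (a cytokine that sustains mouse stem cells), PD0325901 (an inhibitor of the kinase MEK) and CHIR99021 (an inhibitor of the kinase GSK3). The protocol describes independent cultures of a single line for each strain, whereas every title speaks of a technical replicate; p-values measure the spread between these libraries, which may be technical only. Strain and cell line cannot be told apart. The line names conflict in places: B6 replicate 3 is labelled B6 4-1 and B6 replicates 1 and 2 are labelled B6 5-1, while D2 titles say D2 2-9 and the cell line field says D2 5-5. The molecule field says genomic DNA, although the protocol and the table are those of RNA sequencing. No label names feeder cells or a sort.

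Mouse embryonic stem cells keep their identity through a network of transcription factors around Pou5f1, Sox2 and Nanog. LIF and the inhibitor of GSK3 favour the naive state of that network, and the inhibitor of MEK holds back the signals that move cells towards lineage commitment. Fibroblasts are connective tissue cells that secrete collagens and other matrix proteins, and they are often grown beneath stem cells as a feeder layer. A bulk library holds the RNA of every cell in the dish, so fewer cells of a type and less RNA per cell cannot be told apart.

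Total expected counts ran from 22184196 to 36411799 over the 6 parental libraries, the highest in D2 replicate 2. At an adjusted p under 0.05 the strains differed in 10295 of 17148 genes, which is 60.0% of those tested. Of all genes tested, 29.8% were higher in D2 (5107 genes) and 30.3% were lower (5188 genes). Called differences of at least 1 on the log2 scale made up 11.3% (1937 genes: 958 higher and 979 lower). With so many calls, a call by itself says little about a gene list, and the direction and median of each list are therefore set against these shares and against the median of all tested genes, which was 0.01 on the log2 scale (quartiles -0.29 and 0.37).

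The labelled cell type was checked against 10 stem cell markers, and the presence of other cells against markers of 6 further types, as summed levels in TPM (transcript abundance corrected for gene length and library depth). The stem cell markers summed to between 9013 and 9958 TPM in B6 and to between 6287 and 6838 TPM in D2; 9 of the 10 were lower in D2 and the remaining one, Zfp42, did not pass the test. All 13 fibroblast markers were higher in D2, with sums of 6079 to 6755 TPM in B6 and 9678 to 11264 TPM in D2. The groups did not overlap for either sum. Fibroblast-type RNA was therefore abundant in the libraries of both strains: Col1a1, a chain of type I collagen, ranked between 25 and 30 among protein-coding genes in B6 and between 8 and 13 in D2, ahead of Pou5f1 in every parental library. The 2 epithelial markers, Cdh1 and Epcam, summed to 399 TPM in B6 and 179 TPM in D2; Cdh1 was lower in D2 and Epcam slightly higher. Markers of primitive endoderm (13.3 and 16.7 TPM), trophectoderm (5.73 and 10.1 TPM), neural cells (2.02 and 2.77 TPM) and endothelial and blood cells (0.148 and 0.236 TPM) stayed low, and Cdh5, a defining endothelial gene, was at 0 in at least 1 parental library.

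**Figure D1:**
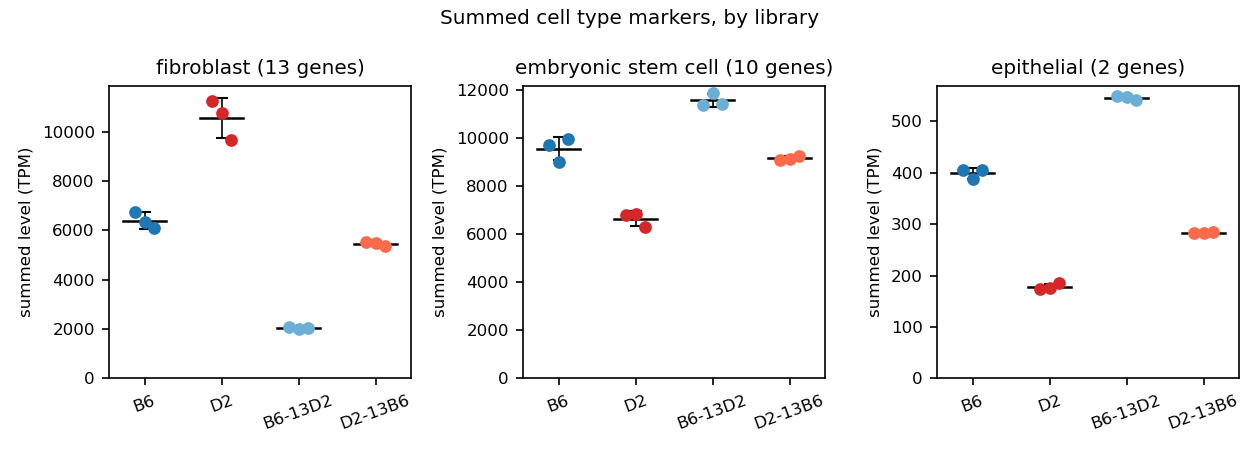
Summed level in TPM of 13 fibroblast, 10 embryonic stem cell and 2 epithelial markers in each of the 12 libraries, by group; points are libraries, the horizontal line is the mean of 3 and the bar is 1 SD. D2 libraries have the highest fibroblast sums (9678 to 11264 TPM) and the lowest stem cell sums (6287 to 6838 TPM).

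The direction of many lists depends on how libraries are scaled, so the scaling is given here once. The main analysis scales libraries so that most genes do not change (TMM). When libraries were scaled instead to the geometric mean of the 10 stem cell markers, a choice made after the data were seen, the median of all tested genes moved from 0.01 to 0.51, and 70.4% of genes were higher in D2 and 7.13% lower (12071 and 1222 genes). That scaling adds nearly the same amount to the log2 fold change of every gene, so a list's distance from the median of all genes hardly moves, and a change of sign follows from the choice of zero. Counts or medians on that second scale are given with the lists as "per stem cell marker".

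Genes of fibroblast type were higher in D2 almost without exception. Of 137 genes in 6 lists (collagens, matrix proteins, surface proteins, mesenchymal transcription factors, contractile genes and genes that respond to serum or to the YAP coactivator), 136 were tested: 126 were higher, 5 were lower and 5 did not pass the test. Their median log2 fold change was 0.60 (quartiles 0.45 and 0.73), and 1.09 per stem cell marker, where 134 were higher and 1 was lower. The shift was broad and moderate: only 10 of the 136 reached 1 on the log2 scale. Against the mean of B6, the median of the list was 0.63, 0.61 and 0.51 in the 3 D2 libraries, so no single library carried it. Leaving out any 1 of the 6 libraries left between 125 and 129 of these genes called.

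Among the fibrillar collagens and their partners, 13 of 14 were higher in D2 (median 0.71). Col1a1 was at 6830, 6248 and 6208 CPM (read counts scaled to library size, with TMM factors) in the 3 B6 libraries and at 11311, 10657 and 9485 CPM in the 3 D2 libraries. The groups were well apart, with a log2 fold change of 0.71 ± 0.05 (SE, adjusted p = 1.58e-09). Col3a1, the main chain of type III collagen, moved further, from 350, 323 and 333 CPM to 707, 674 and 594 CPM (log2 fold change 0.97 ± 0.05, adjusted p = 2.66e-11). Col6a1 and Col6a2, chains of the beaded filament collagen VI, rose by 0.90 and 0.88.

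Matrix proteins other than collagen behaved alike, with 36 of 38 higher and a median of 0.62. Postn (periostin, a secreted matrix protein) was at 80.7, 85.6 and 79.1 CPM in B6 and at 177, 183 and 185 CPM in D2, a log2 difference of 1.15 ± 0.05 (adjusted p = 1.82e-12). Thbs2, a thrombospondin, rose by 1.17, and the small proteoglycans Lum and Dcn rose by 1.23 and 1.02 from low levels of 2.24 and 1.37 CPM in B6. Exactly 2 genes of the list went the other way. Fbln1 (fibulin 1, an elastic fibre protein) was at 64.4, 62.3 and 66 CPM in B6 and at 36, 33.1 and 34.8 CPM in D2, a fall of 0.90 on the log2 scale (adjusted p = 8.21e-11), and it stayed lower per stem cell marker (-0.40). Pcolce, which promotes collagen processing, fell by 0.21 under TMM and was higher by 0.29 per stem cell marker. The fibronectin gene Fn1, singled out after its values were seen, rose by only 0.15 although it was among the most abundant genes of the list (4791 and 5320 CPM).

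Each of the 23 genes for fibroblast surface proteins and receptors was higher in D2 (median 0.56). Nt5e, which encodes the ecto-enzyme CD73, was at 7.82, 8.27 and 7.46 CPM in B6 and at 17, 21.1 and 19.9 CPM in D2 (log2 fold change 1.31 ± 0.10, adjusted p = 2.45e-09). Itga11, a collagen-binding integrin, rose by 1.18, Pdgfrb (a receptor for platelet-derived growth factor) by 0.73, Thy1 by 0.62 and the intermediate filament gene Vim by 0.55. Of 24 tested transcription factors of mesenchyme, 21 were higher and 1 was lower (median 0.66). Prrx1 went from 158, 164 and 155 CPM to 242, 236 and 226 CPM (0.57 ± 0.04), and Twist1 and Twist2 rose by 0.68 and 1.04, the last with reads partly divided among similar genes. Osr2, a zinc finger factor of limb and craniofacial mesenchyme, was the one lower gene, at 3.76 ± 0.31 and 2.62 ± 0.65 CPM (SD, n = 3 each; log2 fold change -0.54, and -0.05 per stem cell marker).

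In the contractile list, which holds smooth muscle genes that myofibroblasts also use, 17 of 18 were higher (median 0.47). Acta2 (smooth muscle actin) was at 1124, 1158 and 1074 CPM in B6 and at 1738, 1709 and 1579 CPM in D2, a log2 difference of 0.58 ± 0.04 (adjusted p = 4.25e-10). Actg2, the enteric smooth muscle actin, rose by 1.14, Mylk (myosin light chain kinase) by 0.82 and Myl9 (a myosin light chain) by 0.53. Many such genes carry a CArG box, the site of serum response factor. Windows of 300 bases around the gene start (mostly upstream of it, RefSeq, GRCm38.p6) were found for 16 of the 18 genes. A gene was counted if any of its windows held a match, whereas the share of all windows is per window. A CArG box on either strand was found in 2 of the 16 genes, against 1.63% of all 32851 windows. Both are shown, with the match in capitals, at chr2:156775214-156775513 (plus strand) and chr10:79988350-79988649 (plus strand).
Myl9: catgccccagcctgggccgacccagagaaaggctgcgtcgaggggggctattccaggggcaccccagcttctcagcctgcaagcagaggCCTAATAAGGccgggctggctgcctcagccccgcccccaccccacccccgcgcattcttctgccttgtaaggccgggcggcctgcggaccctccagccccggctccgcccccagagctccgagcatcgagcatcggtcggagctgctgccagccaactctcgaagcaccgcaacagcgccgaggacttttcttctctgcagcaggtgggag
Cnn2: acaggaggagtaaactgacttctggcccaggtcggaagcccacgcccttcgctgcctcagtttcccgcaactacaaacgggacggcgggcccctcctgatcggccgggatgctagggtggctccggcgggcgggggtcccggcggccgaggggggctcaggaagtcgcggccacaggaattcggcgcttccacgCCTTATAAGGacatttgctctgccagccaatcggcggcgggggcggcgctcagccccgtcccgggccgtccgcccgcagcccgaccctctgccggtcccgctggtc
The match in Myl9 begins 161 bases before the gene start and that in Cnn2 begins 56 bases before it. A match describes the sequence and is no evidence of binding, and a window without one says nothing about the factor.

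Genes that respond to serum or YAP were higher in 17 of 20 cases (median 0.55). Areg, an epidermal growth factor family ligand, rose by 1.44 from 0.428 to 1.18 CPM, Fosl1 (an AP-1 subunit) by 0.79, Ankrd1 by 0.69 and Ccn1 by 0.42. The coactivators themselves were slightly lower: Wwtr1 fell by 0.13 and Yap1 by 0.11 on the log2 scale, calls that were lost with relative log expression (RLE) scaling, another common choice (-0.08, adjusted p = 0.0611, and -0.05, adjusted p = 0.286, edgeR), and both were higher per stem cell marker (0.36 and 0.39). Markers of sex moved as well. Xist, the RNA that coats the inactive X chromosome of female cells, was at 117, 108 and 105 CPM in B6 and at 172, 168 and 166 CPM in D2 (log2 fold change 0.62), while Kdm5d, a gene of the Y chromosome, was at 11.6, 10.2 and 9.56 CPM in B6 and at 6.87, 6.45 and 6.05 CPM in D2 (fell by 0.69 under TMM). RNA of both kinds was present in all 6 libraries; which cells it came from was not tested.

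**Figure D2:**
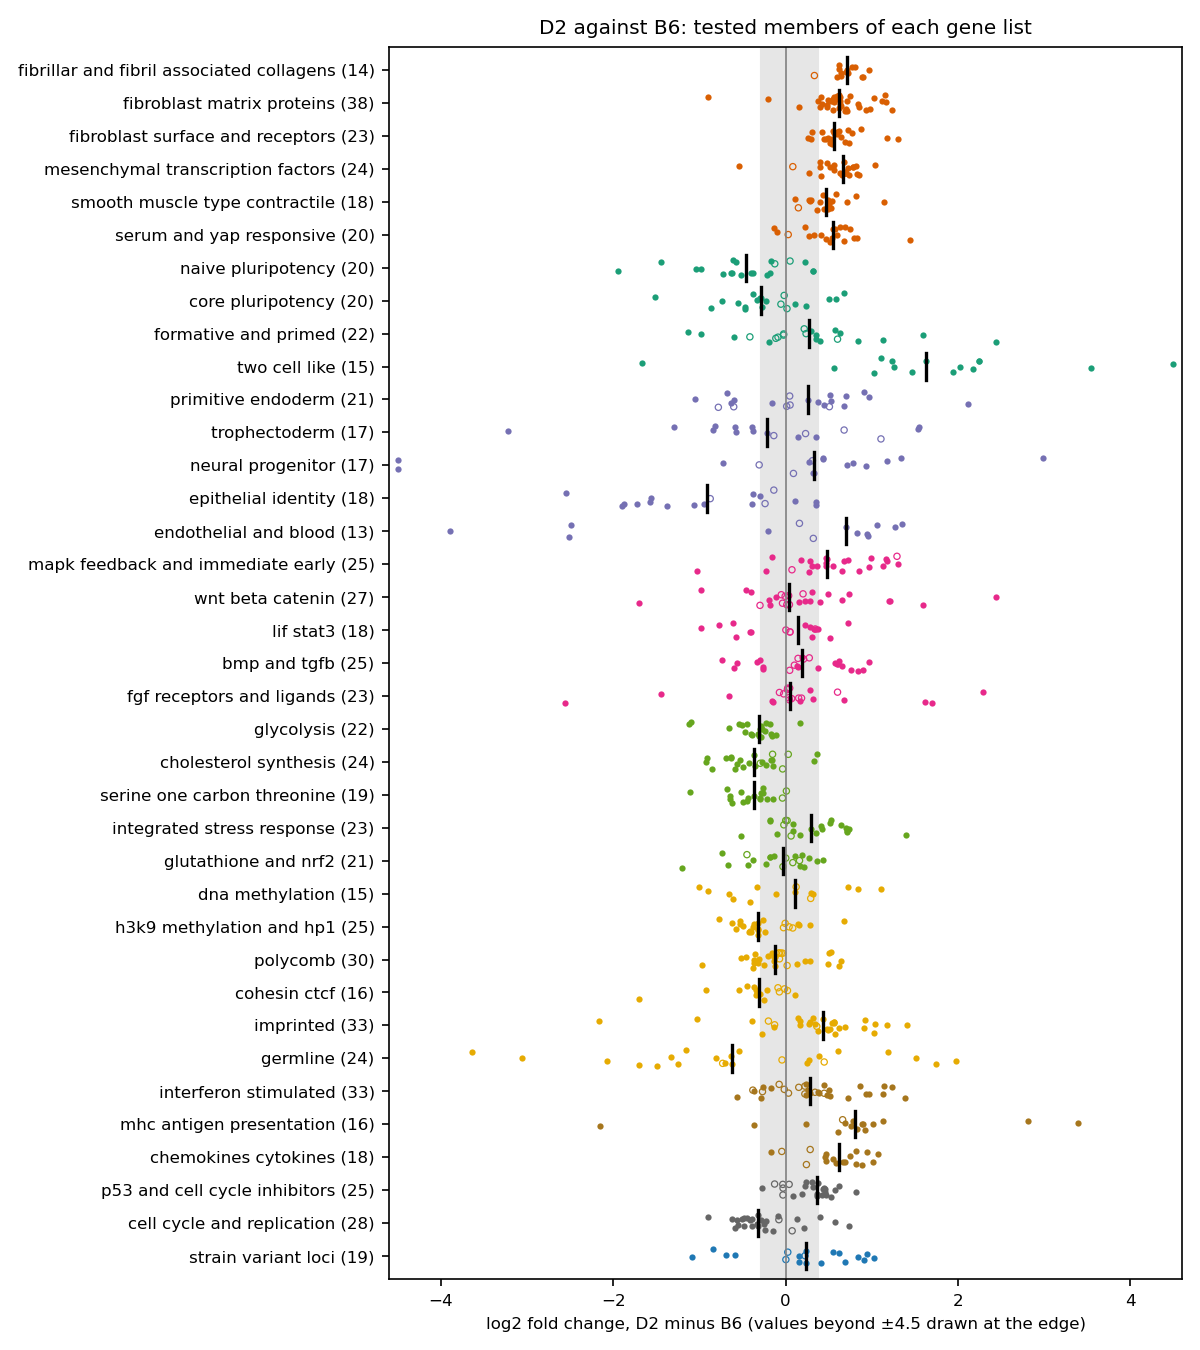
Log2 fold change of D2 minus B6 (TMM scaling) for each tested member of the 37 gene lists; filled points passed the test, open points did not, the black bar is the list median, the number after each name is the number of members tested and the grey band spans the quartiles of all tested genes (-0.29 to 0.37); values beyond the axis are drawn at its edge. The 6 fibroblast-type lists at the top lie almost wholly to the right of 0.

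The stem cell lists had a smaller median shift, with members in both directions. Of 64 genes of naive, core and formative or primed pluripotency, 62 were tested: 18 were higher in D2, 31 were lower and 13 did not pass the test, with a median of -0.18. Per stem cell marker, a scale set by members of these lists, 39 were higher and 14 lower (median 0.32, against 0.51 for all genes). Among 20 naive genes, 15 were lower and 3 were higher under TMM (median -0.46), against 8 lower and 10 higher per stem cell marker (median 0.04).

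Dppa3, a maternal factor and a marker of naive cells, was at 18.8, 18.5 and 17.8 CPM in B6 and at 4.33, 5.48 and 4.28 CPM in D2. Its log2 fold change was -1.94 ± 0.12 (adjusted p = 2.16e-10), and -1.45 per stem cell marker. Fgf4, the growth factor through which stem cells stimulate MEK, was at 247, 253 and 262 CPM in B6 and at 92, 96.4 and 91.1 CPM in D2 (-1.44 ± 0.04, adjusted p = 1.94e-15; -0.95 per stem cell marker). The naive transcription factor genes Tfcp2l1 (856 and 435 CPM) and Nr0b1 (124 and 60.3 CPM) were lower by 0.98 and 1.04 under TMM, and at -0.48 and -0.55 per stem cell marker. The remaining naive factors fell by less: Klf4 by 0.61, Esrrb by 0.40 and Nanog by 0.38 under TMM, of which Klf4 alone stayed negative per stem cell marker (-0.12; Esrrb 0.10, Nanog 0.12). Sox15, Manba and Stat3 were the 3 higher genes of the list, by 0.32, 0.31 and 0.23.

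Core pluripotency genes were lower in 12 of 20 cases and higher in 5 (median -0.28), whereas per stem cell marker 13 were higher and 3 lower (median 0.21). Lin28a, which blocks maturation of let-7 microRNAs, showed the largest difference, from 188, 186 and 201 CPM in B6 to 65.1, 67.6 and 68.4 CPM in D2. It fell by 1.51 ± 0.04 on the log2 scale (adjusted p = 2.63e-15), with -1.02 per stem cell marker. Pou5f1 was at 678, 645 and 752 CPM in B6 and at 539, 537 and 518 CPM in D2, and Sox2 at 365, 355 and 404 CPM in B6 and at 316, 309 and 293 CPM in D2. Neither pair of groups overlapped (log2 fold changes -0.38 and -0.29), and both were slightly above 0 per stem cell marker (0.12 and 0.20), as markers that help to define that scale. Foxd3 fell by 0.86. The higher genes included Dppa2 (0.51, with divided reads), Utf1 (0.58) and Tcf15 (0.68), which were also higher per stem cell marker.

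The formative and primed list leaned the other way, with 10 of 22 tested genes higher and 4 lower (median 0.27; per stem cell marker 16 higher and 3 lower). Lef1, a transcription factor of the Wnt pathway, was at 7.82, 8.73 and 7.8 CPM in B6 and at 23.9, 24 and 25.8 CPM in D2 (log2 fold change 1.59 ± 0.07, adjusted p = 1.79e-12). Lefty2, an antagonist of Nodal, went from 74.3 to 162 CPM (1.13), and the de novo methyltransferase gene Dnmt3b from 96.2 to 172 CPM (0.84), both with partly divided reads. Wnt8a rose by 2.44 from a low 0.256 ± 0.196 CPM to 1.42 ± 0.04 CPM. Several genes of the same list fell: Cldn6 by 1.13, Eomes by 0.99 and Nodal by 0.60. Otx2, an early formative factor, rose by 0.40, and Fgf5 did not pass the test (0.517 ± 0.124 and 0.808 ± 0.408 CPM, SD, n = 3 each, adjusted p = 0.201).

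Epithelial identity genes were lower in D2, under either scaling. Of 18 tested, 12 were lower and 3 higher (median -0.91), and per stem cell marker 9 were lower and 5 higher (median -0.42). Cdh1, which encodes E-cadherin and holds naive colonies together, was at 484, 469 and 503 CPM in B6 and at 127, 132 and 139 CPM in D2 (log2 fold change -1.87 ± 0.04, adjusted p = 2.01e-16). Spint1, an inhibitor of membrane proteases, fell by 1.90 from 112 to 29.9 CPM, and the polarity gene Crb3 fell by 2.55 from 4.40 to 0.699 CPM. Not every epithelial gene followed, as Epcam was at 53.9 ± 1.37 CPM in B6 and 58.1 ± 1.66 CPM in D2 (0.11, adjusted p = 0.0484), and Krt18 and Grhl2 rose by 0.35 each. The sum of Cdh1 and Epcam was lower in D2 than in B6 by more than the sum of stem cell markers, with ratios of 0.448 and 0.695.

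Lineage lists outside the fibroblast group were mixed and mostly at low levels. Primitive endoderm genes were higher in 10 of 21 cases and lower in 5 (15 and 3 per stem cell marker): Hnf4a rose by 2.11 (0.599 to 2.63 CPM) and Gata6 by 0.97, whereas Gata4 fell by 1.05 and the lipoprotein gene Apoe by 0.68. Among trophectoderm genes, 4 were higher and 9 lower of 17 under TMM, against 9 higher and 2 lower per stem cell marker. Within that list Cdx2 rose by 1.55 (1.22 to 3.55 CPM) and Tfap2a by 1.53, and the X-linked homeobox gene Esx1 fell by 3.22 (7.89 to 0.799 CPM). Of 17 neural progenitor genes, 11 were higher and 3 lower (13 and 3 per stem cell marker), but the lower ones included the pair Olig1 and Olig2, described with the largest differences. Endothelial and blood genes were higher in 7 and lower in 4 of 13 (9 and 3 per stem cell marker). Tek and Tie1, the angiopoietin receptor and its relative, fell by 2.51 and 3.90, Tek from 24.6, 24.2 and 25.1 CPM in B6 to 3.67, 4.09 and 5.33 CPM in D2. The macrophage genes Csf1r and Lyz2 rose by 1.35 and 1.06.

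Interferon-stimulated genes, which interferon signalling switches on through the interferon-stimulated response element (ISRE), leaned upwards in D2: 18 of 33 were higher and 5 lower (median 0.29; per stem cell marker 28 and 0). The element was searched as GAAANNGAAA on either strand, where overlapping matches were allowed. It occurred in the 300-base windows of 12 of the 23 members with a RefSeq window, against 3.44% of all 32851 windows. A member was counted if any of its windows held a match, whereas the 3.44% is a share of single windows. The element was also present in 9 of the 14 members that were higher in D2 and had a window. The windows of 4 of those 9 are shown with matches in capitals. They lie at chr4:156200769-156201068 (minus strand), chr19:34640639-34640938 (plus), chr19:34583279-34583578 (plus) and chr2:62646206-62646505 (minus) of GRCm38.p6.
Isg15: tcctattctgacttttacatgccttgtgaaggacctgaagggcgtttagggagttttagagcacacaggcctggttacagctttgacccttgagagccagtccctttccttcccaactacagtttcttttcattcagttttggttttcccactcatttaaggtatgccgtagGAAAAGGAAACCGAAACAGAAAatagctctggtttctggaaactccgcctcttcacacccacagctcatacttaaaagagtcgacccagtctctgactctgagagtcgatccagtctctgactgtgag
Ifit1: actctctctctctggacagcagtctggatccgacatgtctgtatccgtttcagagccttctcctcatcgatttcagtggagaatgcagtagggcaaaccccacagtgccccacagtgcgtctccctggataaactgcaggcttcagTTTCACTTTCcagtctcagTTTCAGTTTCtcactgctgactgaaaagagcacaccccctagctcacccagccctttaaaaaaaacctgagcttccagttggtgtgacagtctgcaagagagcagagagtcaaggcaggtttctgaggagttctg
Ifit3: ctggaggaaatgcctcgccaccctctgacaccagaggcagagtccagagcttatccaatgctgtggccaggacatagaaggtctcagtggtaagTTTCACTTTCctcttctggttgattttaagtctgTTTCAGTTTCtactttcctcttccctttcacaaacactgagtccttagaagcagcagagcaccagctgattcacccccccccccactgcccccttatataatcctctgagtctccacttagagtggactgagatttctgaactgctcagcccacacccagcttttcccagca
Ifih1: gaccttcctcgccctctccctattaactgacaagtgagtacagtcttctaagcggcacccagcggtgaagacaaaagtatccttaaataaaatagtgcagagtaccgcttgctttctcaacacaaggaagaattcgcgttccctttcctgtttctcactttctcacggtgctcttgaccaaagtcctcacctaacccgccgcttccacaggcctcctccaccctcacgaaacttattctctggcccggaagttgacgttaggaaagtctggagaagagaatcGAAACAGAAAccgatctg
Isg15 has 3 overlapping matches, Ifit1 and Ifit3 have 2 each and Ifih1 has 1, which lies downstream of the gene start. These genes, chosen for display after their values were seen, encode a ubiquitin-like modifier (Isg15), proteins that bind foreign RNA (Ifit1 and Ifit3) and a sensor of double-stranded RNA (Ifih1).

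Isg15 was at 10.4, 10.5 and 11.7 CPM in B6 and at 24.1, 25.1 and 22.6 CPM in D2, a log2 fold change of 1.14 ± 0.08 (adjusted p = 1.02e-09). Ifit1 went from 8.48, 7.76 and 6.99 CPM to 16.2, 18 and 16.7 CPM (1.14 ± 0.09). Ifih1 rose by 0.93 from 6.25 to 11.9 CPM and Ifit3 by 0.73 from 5.59 to 9.26 CPM, the Ifit genes with divided reads. None of these groups overlapped between the strains. The largest changes of the list were in Usp18 (1.38), which removes Isg15 from proteins, and in the transcription factor Irf7 (1.23). Stat2, whose window also holds an ISRE, was lower (-0.29; 0.21 per stem cell marker), and the nucleic acid sensor Zbp1 was lower by 0.57. The list's median was below that of the fibroblast-type genes (0.60), which are higher in the same libraries; the part of fibroblast-type cells in it was not tested.

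Antigen presentation genes were higher in 13 of 16 cases and lower in 2 (median 0.81; per stem cell marker 14 and 1). B2m, the invariant chain of class I molecules, was at 339, 355 and 345 CPM in B6 and at 602, 597 and 588 CPM in D2 (0.78 ± 0.04, adjusted p = 1.1e-11). The heavy chain genes H2-K1 and H2-D1 rose by 0.83 and 0.90, but differ in sequence between the strains and had divided reads. Class II genes were uneven. H2-Eb1 was at 3.07, 3.19 and 2.44 CPM in B6 and at 32, 30.3 and 29.7 CPM in D2 (3.40 ± 0.09, adjusted p = 1.47e-15), whereas Cd74, the class II chaperone, was lower, at 2.76 and 0.602 CPM (-2.15 ± 0.19). Chemokines and cytokines were higher in 14 of 18 and lower in 1 (median 0.62; 15 and 0 with RLE scaling, 18 and 0 per stem cell marker). Their median was close to that of the fibroblast-type genes (0.60) in the same libraries. The part of fibroblast-type cells in the chemokine and antigen presentation values was not tested. Ccl2 rose by 0.95 (7.52 to 14.5 CPM), Cxcl10 by 1.01 (2.04 to 4.14 CPM), Cxcl12 by 0.82 and Il11 by 1.07.

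Imprinted genes, which are read from 1 parental allele, were higher in 25 of 33 cases and lower in 5 (median 0.44; per stem cell marker 29 and 1). Fibroblast-type genes were higher in the same libraries (median 0.60), the list shares Dcn with them, and their part in it was not tested. Mest rose by 1.41 (31.7 to 84.4 CPM, with divided reads), Nnat by 1.04, Dlk1 by 0.92 and H19 by 0.69, from 94, 88.6 and 92.9 CPM in B6 to 152, 142 and 150 CPM in D2. Igf2, the neighbour of H19, rose by 0.52. Against the run, Phlda2, a growth-restraining placental gene, fell by 2.17 (6.28 to 1.44 CPM), and its neighbour Slc22a18 fell by 1.02. Both lie in the same imprinted cluster on chromosome 7. Dcn stands in this list and in the matrix list.

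Signalling lists differed in their lean. Feedback and immediate early genes of the MAPK pathway, which the MEK inhibitor in the medium restrains, were higher in 20 of 25 cases and lower in 3 (median 0.48; per stem cell marker 24 and 1). Etv4 was at 20.9, 22.3 and 23.3 CPM in B6 and at 55, 55.2 and 53.4 CPM in D2 (1.30 ± 0.05, adjusted p = 1.03e-12), Egr1 went from 17 to 37.1 CPM (1.13), and Fosb from 48.9 to 110 CPM (1.17). Spry2, a feedback inhibitor of the same pathway, was lower in D2: 125, 125 and 125 CPM against 58.9, 63.5 and 60.5 CPM (-1.03 ± 0.04, adjusted p = 2.32e-13), while its relative Spry4 rose by 0.97. Dusp6, a phosphatase often used as a readout of MAPK activity, rose by only 0.18 (26.6 ± 2.9 to 30 ± 0.569 CPM, SD, n = 3 each). In the same libraries fibroblast-type genes were higher (median 0.60), and the part of fibroblast-type cells in the MAPK list was not tested.

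Wnt and beta-catenin genes had a median near 0 (0.04), with 12 higher and 7 lower of 27 and 19 and 1 per stem cell marker. Axin2, a direct target of beta-catenin, was at 73.5, 73.2 and 71.3 CPM in B6 and at 71.4, 73.8 and 74.7 CPM in D2 and did not pass the test. Beside Lef1 and Wnt8a, Wnt4 rose by 1.22, and Wnt7b fell by 1.70. In the LIF and STAT3 list, 8 were higher and 6 lower of 18 (13 and 3 per stem cell marker): Socs3, a STAT3 target, rose by 0.30 and Pim3 fell by 0.77. BMP and TGF-beta genes were higher in 13 and lower in 7 of 25 (20 and 2 per stem cell marker), with Bmp4 (0.96), Id1 (0.90) and the antagonist Nog (0.84) at the top. FGF genes were higher in 7 and lower in 5 of 23 (19 and 2 per stem cell marker) and included opposite extremes: the ligand Fgf17 fell by 2.56 (10.5 to 1.78 CPM), while the ligand carrier Fgfbp1 rose by 2.29, from 2.86, 2.9 and 2.53 CPM in B6 to 13.7, 13.4 and 13.5 CPM in D2. Targets of p53 and cell cycle inhibitors were higher in 19 of 25 and lower in 1 (median 0.36), with 25 and 0 per stem cell marker. Eda2r rose by 0.81 and Cdkn1a (p21) by 0.31, and Trp53 itself did not pass the test (415 and 406 CPM). With fibroblast-type genes higher in the same libraries, the part of fibroblast-type cells in the p53 list was not tested.

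Metabolic and growth lists were lower in D2 under TMM. Their medians per stem cell marker were above 0 but below the median of all genes on that scale (0.51). Glycolysis genes were lower in 21 of 22 cases and higher in 1 (median -0.30), against 3 lower and 15 higher per stem cell marker (median 0.19). Ldhb and Pfkm, subunits of lactate dehydrogenase and phosphofructokinase, were the exceptions in size: Ldhb went from 157, 159 and 177 CPM to 74, 77.1 and 75.7 CPM (-1.12 ± 0.05, adjusted p = 2.24e-12) and Pfkm from 71 to 33.2 CPM (-1.10). Cholesterol synthesis genes were lower in 18 of 24 and higher in 2 (median -0.36), against 6 lower and 11 higher per stem cell marker (0.13). Hmgcs1 fell by 0.85 (230 to 127 CPM), Insig1 by 0.92 and Dhcr7 by 0.91. Per stem cell marker the values of Insig1, Dhcr7 and Hmgcs1 were -0.43, -0.42 and -0.36. Genes of serine, one-carbon and threonine metabolism were lower in 17 of 19 under TMM (median -0.37) and in 4 per stem cell marker, with 10 higher. Mthfd1, a folate enzyme, fell by 1.11 (370 to 171 CPM), and Tdh, the threonine dehydrogenase on which mouse stem cells depend, fell by 0.43 (0.06 per stem cell marker).

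Cell cycle and replication genes followed the same pattern: 21 of 28 were lower and 5 higher under TMM (median -0.32), against 3 lower and 18 higher per stem cell marker (0.17). Top2a, the DNA topoisomerase of dividing cells, fell by 0.90 (606 to 325 CPM) and the helicase subunit Mcm4 by 0.59, while the cyclin Ccnd2 rose by 0.57 and the repressor E2f8 by 0.73. Genes of the integrated stress response were higher in 15 and lower in 4 of 23 (median 0.29; 22 and 0 per stem cell marker). Ddit3 (CHOP) rose by 0.70 (17.3 to 28.2 CPM), but Asns, asparagine synthetase, fell by 0.52 (682 to 476 CPM). In the glutathione and NRF2 list 7 were higher and 9 lower of 21, a split that turned to 8 and 7 with RLE scaling and to 15 and 3 per stem cell marker (median 0.46). Gpx4, the lipid peroxidase that prevents ferroptosis, fell by 0.74 (296 to 177 CPM; the transferase gene Gstm2 went from 16.3 to 7.03 CPM).

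Among chromatin genes, those of DNA methylation split into 6 higher and 7 lower of 15 under TMM, 7 and 6 with RLE scaling, and 11 and 4 per stem cell marker (median 0.60). Dnmt3l, the cofactor of the de novo methyltransferases, was at 82.2, 75.1 and 84.5 CPM in B6 and at 169, 174 and 176 CPM in D2 (1.10 ± 0.04, adjusted p = 4.48e-13). Dnmt3a fell by 0.65 (75.9 to 48.2 CPM), the oxidase Tet2 by 1.01 (199 to 99.1 CPM) and the imprint guardian Zfp57 by 0.90 (508 to 272 CPM). These 3 stayed below 0 per stem cell marker (-0.16 for Dnmt3a, -0.52 for Tet2 and -0.41 for Zfp57). Genes of H3K9 methylation and HP1 were lower in 17 of 25 and higher in 4 (median -0.32), against 2 lower and 16 higher per stem cell marker. Setdb1 fell by 0.42 and Resf1 by 0.77, and the co-repressor Trim28 did not pass the test (1780 and 1830 CPM). Polycomb genes were lower in 15 and higher in 8 of 30 (median -0.12; 0 and 26 per stem cell marker), and cohesin and CTCF genes lower in 11 and higher in 1 of 16 (-0.31; 2 and 11 per stem cell marker). Stag3, a cohesin subunit of germ cells, fell by 1.70 (17.5 to 5.35 CPM) under TMM and by 1.21 per stem cell marker.

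**Figure D3:**
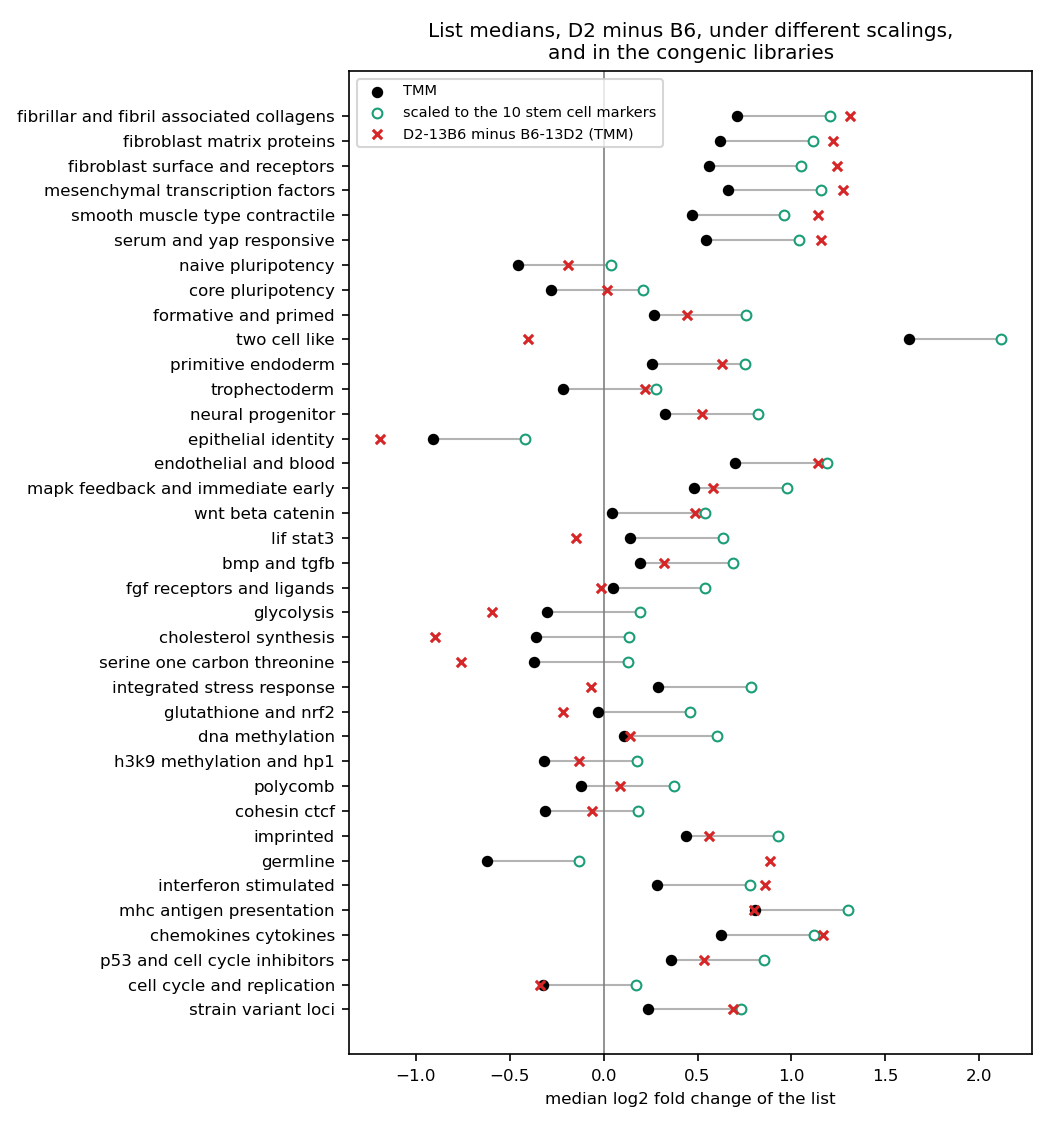
Median log2 fold change of each of the 37 gene lists: black, D2 minus B6 with TMM; open green, the same with libraries scaled to the 10 stem cell markers; red crosses, D2-13B6 minus B6-13D2 with TMM. Naive and core pluripotency, trophectoderm, glycolysis, cholesterol, one-carbon and glutathione lists change sign between the scalings. Cell cycle, H3K9, polycomb and cohesin lists do so too, while epithelial and germline genes stay below 0 and fibroblast-type lists above 0.

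Germline genes, many of which are silenced by promoter methylation in somatic cells, showed large differences in both directions: 8 of 24 were higher and 13 lower under TMM (median -0.62), against 9 higher and 7 lower per stem cell marker (median -0.13). Tdrd12, a piRNA pathway gene, was at 58.9, 55.4 and 62.7 CPM in B6 and at 6.5, 7.37 and 7.19 CPM in D2 (-3.06 ± 0.06, adjusted p = 2.01e-16). Sycp3, of the synaptonemal complex, fell by 3.64 (4.80 to 0.383 CPM, divided reads), and the helicase gene Ddx4 by 2.07 (13.6 to 3.20 CPM). Genes of the two-cell-like state, a rare state that resembles the early embryo, were higher in 14 of 15 cases and lower in 1 (median 1.63; 14 and 0 per stem cell marker). Zscan4c was at 10.7, 11.6 and 10 CPM in B6 and at 47.4, 47.4 and 59.1 CPM in D2 (2.24 ± 0.09, adjusted p = 1.62e-12). In 14 of these 15 genes reads were divided among near-identical copies, whose number and sequence can differ between strains, so single members are uncertain. Zfp352, the one with whole counts, rose by 1.63 from 0.431 ± 0.159 to 1.33 ± 0.226 CPM. Tdpoz4 was at 0 in all B6 libraries and at 0.82 to 1.08 CPM in D2, at least 21.9-fold higher against the limit of 3 counts over the B6 group.

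Gene families repeated these patterns. Genes with Rpl or Rps symbols, which apart from the kinase-like Rps6kl1 encode cytosolic ribosomal proteins or their close relatives, were lower in 68 of 82 and higher in 3 (median -0.27), but 68 were higher and 1 lower per stem cell marker, and 63 of them had divided reads. Nuclear complex I genes (21 lower and 3 higher of 46) and mitochondrial ribosomal protein genes (33 lower and 4 higher of 77) likewise changed to 40 and 71 higher per stem cell marker. With RLE scaling 13 complex I genes and 24 mitochondrial ribosomal protein genes were lower. Genes with Zfp, Zscan or Zkscan symbols, zinc finger proteins, were lower in 170 and higher in 62 of 403 (median -0.16), against 43 lower and 241 higher per stem cell marker. Hox genes, which hold positional identity in somatic cells, were higher in 22 of 36 and lower in 1 (median 0.58), clustered protocadherins in 20 of 35 with 0 lower (0.58), and histone genes in 19 of 56 with 1 lower (0.54); these 3 kept their direction per stem cell marker (31, 32 and 34 higher). Reads were divided in 26 of the 35 protocadherins and 47 of the 56 histone genes, so single members of those families are uncertain. Only 35.7% of the histone genes were called, whereas 60.0% of all tested genes were called and 29.8% were higher. Hoxc6 (1.44 to 3.23 CPM, 1.16) and Hoxd13 (19.6 to 26 CPM, 0.41) were among the Hox genes called, named after their values were seen. Hox genes, protocadherins and fibroblast markers were thus all higher in the same libraries; the part of fibroblast-type cells in the Hox and protocadherin values was not tested.

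The largest single-gene differences were of another order. They were chosen among called protein-coding genes with a mean CPM over the parental libraries of at least 2 on the log2 scale. Whole counts and groups that did not overlap were also required, and the 10 lowest and the 10 highest were taken. Olig2, a transcription factor of motor neuron and oligodendrocyte progenitors, was at 23.4, 23 and 27.5 CPM in B6 and at 0.0416, 0.0278 and 0.091 CPM in D2. That is 1721 against 4 counts, a depth-corrected ratio of 504 with a counting interval of 197 to 1853. Its neighbour on chromosome 16, Olig1, was at 28.4, 28.8 and 29.1 CPM in B6 and at 0.583, 0.751 and 0.819 CPM in D2 (log2 fold change -5.31 ± 0.11, adjusted p = 1.81e-16). The pair was thus expressed in B6 libraries and nearly absent from D2 libraries.

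Ubd, a ubiquitin-like modifier next to the class I region of chromosome 17, was at 10.1, 9.4 and 10 CPM in B6 and at 0, 0.0834 and 0 CPM in D2 (688 against 3 counts; ratio 269, counting interval 91.6 to 1307). Htr5a, a serotonin receptor, fell by 5.57 (10.1 to 0.203 CPM), and Hal, histidine ammonia-lyase, by 4.46 (13.3 to 0.609 CPM). A pair of innate sensors belonged to the same group: Nod1, which detects bacterial peptidoglycan, went from 53.1, 50.8 and 55.9 CPM to 3.5, 4.25 and 2.73 CPM (-3.88 ± 0.09), and Aim2, which detects cytosolic DNA, from 44.1, 49 and 49.7 CPM to 3.33, 2.75 and 3.96 CPM (-3.87 ± 0.09). Obox6, a homeobox gene of oocytes, fell by 4.09 (19.7 to 1.12 CPM), AA467197 by 4.45 and Elobl by 3.94.

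On the higher side, Apoc2, an apolipoprotein that activates lipoprotein lipase, was at 0.0879, 0.0839 and 0.214 CPM in B6 and at 11.4, 10.8 and 9.97 CPM in D2 (882 against 9 counts; ratio 83.6, counting interval 43.9 to 183). Aass, the first enzyme of lysine breakdown, was at 0.747, 0.588 and 0.943 CPM in B6 and at 23, 26.6 and 28.3 CPM in D2 (5.09 ± 0.13, adjusted p = 2.9e-15). Adam23, a membrane protein of neurons, rose from 6.63, 6.8 and 7.07 CPM to 70.2, 72.4 and 79 CPM (3.43 ± 0.07), and the kinase gene Hunk from 11.9, 11.1 and 11.1 CPM to 74, 73.9 and 76.6 CPM (2.72 ± 0.05). Mmrn2, an endothelial matrix protein, rose by 4.33 (1.83 to 36.9 CPM), Sytl3 by 4.57, Stab2 by 3.61, Ccnb1ip1 by 3.36 and Kcnf1 by 2.90.

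**Figure D4:**
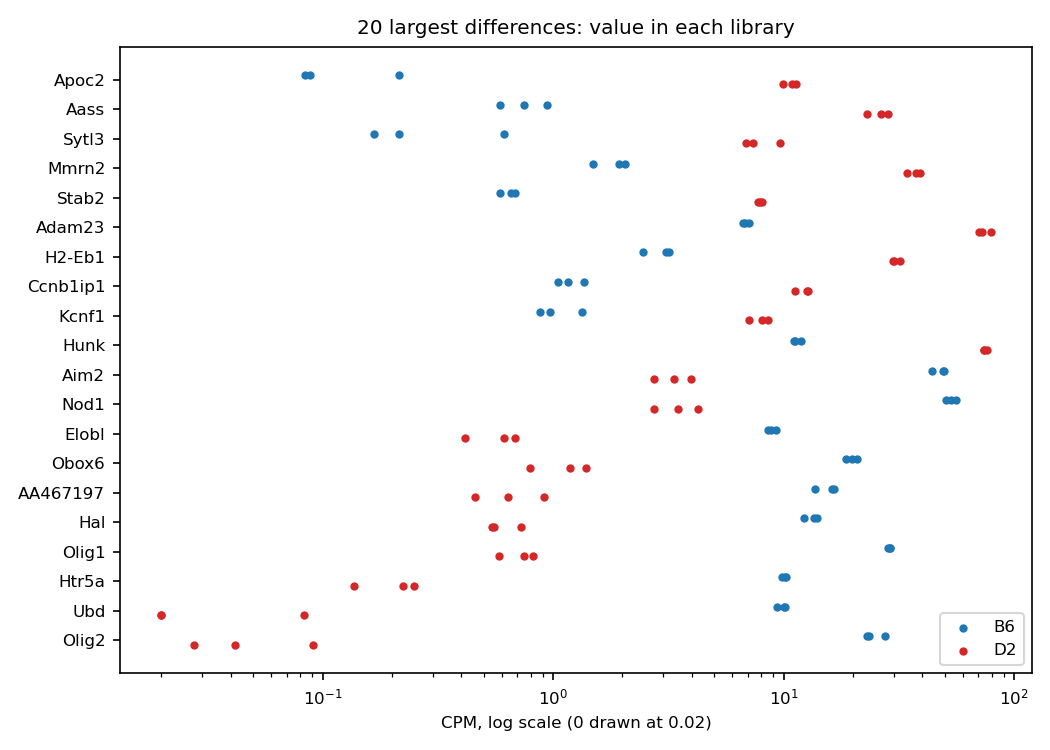
CPM on a log axis in each of the 3 B6 (blue) and 3 D2 (red) libraries for the 20 largest differences under the stated rule, ordered by fold change; values of 0 are drawn at 0.02. No gene has overlapping groups, and Olig2 and Ubd are close to 0 in D2.

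The congenic lines allow the 2 strain backgrounds to be compared in libraries that the parental comparison did not use: D2-13B6 minus B6-13D2 sets a D2 genome against a B6 genome everywhere outside the exchanged stretch of chromosome 13, where the alleles are swapped. The effect of the exchanged stretch, also on genes elsewhere, therefore enters the 2 contrasts with opposite sign, and that effect and differences between lines cannot be told apart. In the congenic contrast 70.2% of genes were called (12046 genes), 38.4% higher and 31.8% lower. Outside chromosome 13, 7295 genes were called with the same sign in both contrasts, which is 44.2% of the 16510 tested there. Among the 8138 called in both, 89.6% had the same sign and 843 had opposite signs, while 1793 genes called in the parental contrast were not called in the congenic one. Across those genes the 2 sets of log2 fold changes had a Pearson correlation of 0.688, given as a description, since genes are not independent replicates. Genes of chromosome 11 had a median of 0.01 in the parental contrast and 0.39 in the congenic one, so the congenic values of chromosome 11 genes stand on a shifted base. Sex chromosomes were shifted as well: the parental and congenic medians were 0.05 and 0.23 for X, and -0.11 and 1.12 for the 14 tested genes of Y.

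Fibroblast-type genes differed in the same direction and further in the congenic contrast: 124 of 136 were higher and 4 lower, with a median of 1.24. Of 125 called in both, 124 had the same sign, and Fbln1 and Pcolce were again lower (-1.38 and -0.69). The fibroblast marker sum did not sort by genetic background, however. It was lowest in B6-13D2 (1985 to 2089 TPM), then came D2-13B6 (5355 to 5539 TPM), then B6 and then D2, so that D2-13B6 libraries lay below all B6 libraries. The stem cell markers of the congenic lines summed to 11388 to 11880 TPM in B6-13D2 and to 9073 to 9240 TPM in D2-13B6. Of the 62 stem cell genes, 22 were higher and 25 lower in the congenic contrast, with a median of 0.02 against -0.18 in the parental one. Naive genes were higher in 3 cases and lower in 12, core genes in 4 and 9, and formative or primed genes in 15 and 4.

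Among the 20 largest differences, 16 had the same sign in the congenic contrast. Olig2 (-8.89), Olig1 (-5.63), Nod1 (-4.29), AA467197 (-4.09), Elobl (-3.78), Adam23 (3.73), Sytl3 (3.60), Kcnf1 (3.45), Ccnb1ip1 (3.09) and Hunk (2.36) had the parental sign, at the congenic log2 fold changes given in parentheses. Ubd was at 12.7, 13.7 and 11.8 CPM in B6-13D2 and at 0 in all 3 D2-13B6 libraries. The opposite sign was found for 4 genes, all called in both contrasts: Obox6 (6.41), Aass (-2.37), H2-Eb1 (-1.49) and Htr5a (1.17). Stab2 did not pass the test there (0.62, adjusted p = 0.0524). Within the lists, Lin28a (-1.21), Dppa3 (-1.74), Tfcp2l1 (-1.11), Fgf4 (-0.85), Cdh1 (-1.15), Spint1 (-1.72), Crb3 (-3.56), Lef1 (2.10), Spry2 (-1.80), Fgf17 (-2.95), Fgfbp1 (2.19) and Tdrd12 (-2.36) had the parental sign. In 6 lists the majority of calls turned in the congenic contrast, in which 38.4% of all genes were higher and 31.8% lower. Genes of the two-cell-like state were higher in 2 and lower in 9 of 15 (median -0.41), germline genes higher in 15 and lower in 8 (median 0.88), and integrated stress response genes higher in 8 and lower in 11 (median -0.07). The other 3, trophectoderm (8 higher and 6 lower of 17), DNA methylation (8 and 5 of 15) and polycomb genes (14 and 10 of 30), were nearer to those background shares. LIF pathway genes were tied at 8 and 8. Among single genes, Nr0b1 (0.15), Epcam (-0.80), Dnmt3a (0.93), Zfp57 (0.31), Dazl (1.30) and Etv4 (-0.51) turned as well, while Tet2 (0.00) and Foxd3 (0.03) did not pass the test there.

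**Figure D5:**
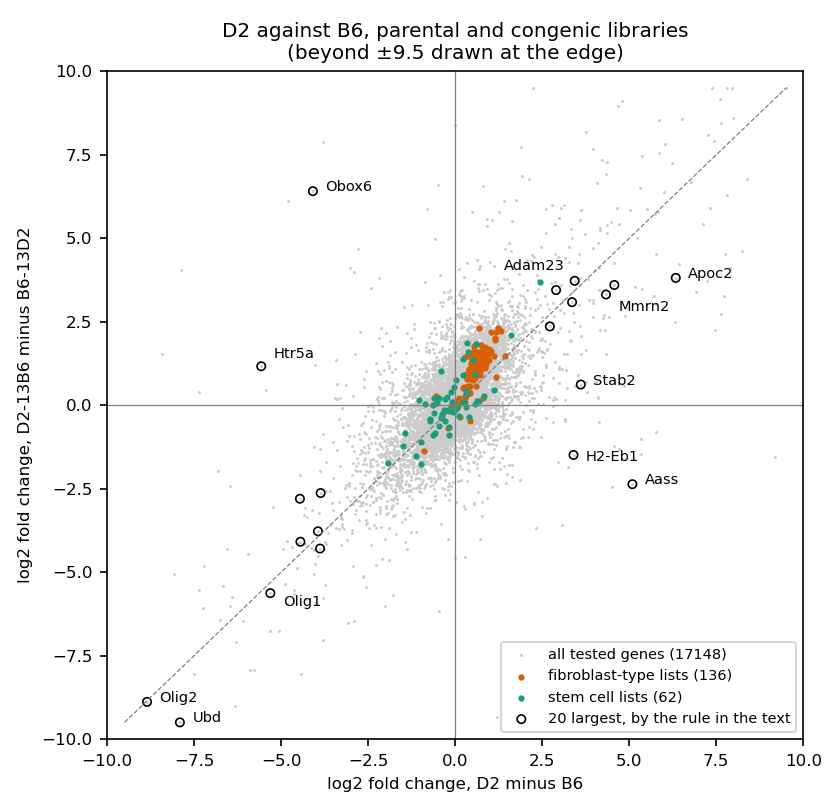
Log2 fold change of each of 17148 tested genes in D2 minus B6 (x axis) and in D2-13B6 minus B6-13D2 (y axis); orange, 136 fibroblast-type genes; green, 62 stem cell genes; rings, the 20 largest parental differences; dashed line, equal values. Ubd, at 0 in all D2-13B6 libraries, is drawn at the lower edge, where its y value has no scale; Obox6, Htr5a, H2-Eb1 and Aass lie in the opposite quadrants.

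Loci at which the strains are known to differ in copy number or to carry a coding mutation were described last; of 19 such genes and sex-linked genes, 12 were higher and 4 lower (15 and 2 per stem cell marker). Glo1 (0.69, divided reads) and Alad (0.91), which DBA/2J carries in extra copies, were higher in D2; Alad was at 22.3, 22.5 and 25.5 CPM in B6 and at 45.2, 41.9 and 45.1 CPM in D2. Wdfy1 rose by 0.94 (19.2 to 37 CPM), and Ide, the insulin-degrading enzyme, fell by 1.09 (320 to 151 CPM). Nnt, a mitochondrial transhydrogenase of which C57BL/6J has lost several exons, was at 44.7, 44.3 and 43.3 CPM in B6 and at 22.9, 24.7 and 26 CPM in D2 (-0.85 ± 0.05, adjusted p = 4.23e-10). Counts summed over a gene do not show which exons are present. Gpnmb, in which DBA/2J has a premature stop, was higher in D2 (35.4 to 72.3 CPM, 1.03).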

How the data were processed

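The series holds 12 RNA libraries, 3 for each of 4 groups, and 6 of them (3 B6, 3 D2) carry the comparison. Values are expected counts as the authors deposited them, in which reads shared by similar genes are divided among them; the submitters' processing notes name Bowtie 1.0.0, edgeR 3.34.1 and mm10. All columns of the table were mapped to a sample by name (0 not mapped). For this re-analysis the values were rounded to whole numbers, and genes were kept with edgeR's filterByExpr (minimum count 10). Of 43346 gene identifiers, 42462 matched GENCODE M21, and the 884 others held 0.361% of counts.

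The quasi-likelihood test of edgeR 4.0.16 (R 4.3.3) was fitted to all 12 libraries with 4 group means and TMM scaling, with Benjamini-Hochberg adjustment over all tested genes and a threshold of 0.05; every adjusted p is from it. SE is the log2 fold change divided by the root of the F statistic. CPM values carry the TMM factors, and TPM uses exon lengths. Counts were called divided when they were not whole (tolerance 1e-06), which applied to 27.6% of tested genes. Intervals of count ratios are 95% counting intervals and cover counting error only.

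Genes were named by rule. A called protein-coding gene was eligible if its mean CPM over the parental libraries was at least 2 on the log2 scale. Whole counts and groups that did not overlap were also required (5636 eligible). From these came the 10 highest and 10 lowest, and the 5 highest and 5 lowest with the same sign in both contrasts. For each list, preset anchor genes and up to 3 called members with the largest change in each direction were added. Fn1, Cnn2, Ifit3, Ifih1 and the Hox genes were named after their values were seen. The members and all 37 lists and 26 families were chosen with earlier results of these data known. Alternatives were DESeq2 1.42.0, RLE scaling, other filters, a fold threshold, a replicate block, fewer libraries and scaling to stem cell markers.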

Additional observations from a re-analysis of the deposited data

Results flagged for a closer look

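The parental and congenic contrasts both set a D2 against a B6 background, in libraries they do not share, but with the chromosome 13 stretch swapped in the second. Their difference, which carries the effect of that stretch and of the lines, was tested as an interaction in the edgeR model (Benjamini-Hochberg adjustment). It passed the threshold for 7524 of the 17148 tested genes, for 107 of the 136 fibroblast-type genes, for 42 of the 62 stem cell genes and for 185 of the 264 genes named only through the lists. Among the 20 largest parental differences it passed for 12. Congenic minus parental log2 fold change was 10.50 for Obox6, 6.74 for Htr5a, -7.46 for Aass and -4.89 for H2-Eb1, the 4 genes whose sign turned. It was -2.99 for Stab2, -2.52 for Apoc2, 1.66 for Hal, 1.23 for Aim2 and -1.02 for Mmrn2, where the congenic difference had the parental sign but was smaller. It was -0.41 for Nod1, -0.36 for Hunk and 0.29 for Adam23, of which Nod1 and Adam23 differed by more in the congenic contrast and Hunk by less.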

How the results depend on the processing

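With the exception of the fold threshold, each total number of calls stayed within 1.5 times its main value, but the split into higher and lower depended on scaling. The near balance of 5107 higher and 5188 lower genes became 5834 and 4448 with RLE scaling. DESeq2 gave 5259 and 4125, and the stricter filter (mean CPM 1 or more) 5267 and 4175; the glutathione and DNA methylation lists turned with RLE. Scaling to the stem cell markers gave 12071 and 1222, changed stem cell genes from 18 higher and 31 lower to 39 and 14, and turned the lists named in the text. Requiring a log2 fold change of at least 1 reduced the genes called in D2 against B6 from 10295 to 1937, fibroblast-type genes from 131 to 10, stem cell genes from 49 to 8, congenic calls from 12046 to 3786 and genes of the same sign in both contrasts from 7295 to 1210. Leaving out 1 replicate gave 9317 to 10196 parental calls, 11405 to 11573 congenic calls, 125 to 129 fibroblast-type genes, 45 to 47 stem cell genes and 6741 to 7234 genes of the same sign, with 10 to 15 of the 284 named genes no longer called. DESeq2 called 9384 genes and RLE scaling 10282; 14 and 5 named genes lost their call. With no filter, with a mean CPM of at least 1 and with only the libraries compared, 3 of 284, 4 of 269 and 11 of 282 named genes did, the others not being tested there. Scaling to the stem cell markers, chosen after seeing the data, gave 13293 calls, of which 90.8% were higher in D2 against 49.6% with TMM. A replicate block gave 10167 calls, with 131 fibroblast-type and 50 stem cell genes, and 2 named genes lost their call; same-numbered libraries correlated between -0.125 and 0.0683 in their deviations, so the numbers do not pair the libraries. With totals from 22184196 counts, genes at a few counts, such as Tal1 and H2-Aa, have wide intervals.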

Other observations

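Gene families outside the groups described so far had shares of called genes on both sides of the 60.0% of all tested genes: 63.2% for glutathione transferases, 54.5% for claudins, 84.2% for serpins, 76.4% for tripartite motif genes and 30.8% for genes encoded by mitochondrial DNA. Glutathione transferases, which detoxify reactive compounds, were lower in D2 in 9 of 19 cases and higher in 3 (median -0.36), against 6 lower and 4 higher per stem cell marker, and the congenic median was -1.08. Claudins, the seal-forming proteins of tight junctions, were lower in 4 and higher in 2 of 11, with the same counts per stem cell marker. Serpins were higher in 10 and lower in 6 of 19 (12 and 3 per stem cell marker). Tripartite motif genes were split under TMM, with 20 higher and 22 lower of 55 (21 and 20 with RLE scaling), against 38 and 4 per stem cell marker. All 3 tested gamma crystallin genes were higher in D2 (median 4.33), with reads divided among similar genes, whereas in the congenic contrast 1 was higher and 1 lower. Of 13 genes encoded by mitochondrial DNA, 4 were lower and 0 higher under TMM, against 1 lower and 10 higher per stem cell marker.

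A few low genes had large ratios with wide counting intervals. Tal1, a blood stem cell factor, had 49 counts in B6 and 10 in D2 (ratio 5.74, interval 2.87 to 12.7). The class II gene H2-Aa had 51 counts in D2 and 6 in B6 (ratio 7.25, interval 3.11 to 20.7).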
